A study of Mus musculus with 28 samples.

Results

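The cytosolic ribosomal protein genes are described here in dendritic cells of the mouse spleen, which present antigen to T cells. Members were chosen by symbol from the single-symbol probe sets of the array: Rpl or Rps followed by digits and at most 1 of the letters a, x or y, together with Rpsa, Rplp0, Rplp1 and Rplp2. The Rps6k kinases were left out. Where a gene had several such probe sets, the brightest by its mean over the 28 arrays stood for it, and a level above 5 on the log2 scale was required on at least 3 arrays. This gave 53 genes of the 10452 tested, 33 of the large and 20 of the small subunit, and all 53 symbols found on single-symbol probe sets passed the level. A further 16 symbols of this form, among them Rpl3, Rpl11 and Rpl13a, were carried only by probe sets that also list other symbols, and their levels were not analysed here.

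RNA was hybridised to 28 one-colour Affymetrix arrays, 1 per sample, in 6 groups of 3-month-old mice, with C57BL6/J given as the strain of the wild type. The groups were wild type with angiotensin II (Ang II) plus hydralazine and hydrochlorothiazide (Hyd/HCTZ, n = 6), wild type with Ang II plus 2-hydroxybenzylamine (2-HOBA, n = 4), NOX2 (gp91phox) knockout with Ang II (n = 4), wild type with Ang II (n = 4), knockout with vehicle (n = 3) and wild type with vehicle (n = 7). The study asked how oxidative stress affects the expression profile of these cells. Ang II is the effector peptide of the renin system and constricts vessels, hydralazine is a vasodilator, hydrochlorothiazide is a diuretic, 2-HOBA scavenges reactive dicarbonyls, and NOX2, encoded by Cybb, makes superoxide in phagocytes. The series title speaks of hypertension while its design text has isolated cells treated, so it is not settled whether mice or cells received the agents. How the cells were sorted, and the doses and durations, are not given in the sources used here, and the replicates are labelled biological.

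Each cytosolic ribosome joins a small subunit, which reads the messenger RNA, to a large subunit, which forms the peptide bond, and each subunit holds 1 copy of most of its proteins. The acidic P proteins of the large-subunit stalk, which recruit the elongation factors, are the exception. Many ribosomal protein messages begin with a C and a run of pyrimidines, the terminal oligopyrimidine (TOP) tract, through which mTORC1 controls their translation. Dendritic cells are known to change their rate of protein synthesis when they mature. These genes also have many processed pseudogenes and near-identical copies, so a probe set can detect more than 1 locus.

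The sequences around the start show which genes hold such a run near their annotated start, before or after it. They are shown for the 3 largest rises of each subunit and the called fall described below, as far as these had an entry, and for Rplp0 of the stalk, with the run, here a C followed by at least 4 bases C or T, in capitals. Each line gives the 15 bases before and the 15 bases from the start of a transcript in RefSeq (GRCm38.p6), 5′ to 3′ on the gene's strand, for Rpl14 at chr9:120571502-120571531 (plus strand), Rpl24 at chr16:55966260-55966289 (plus), Rplp0 at chr5:115559452-115559481 (plus), Rps10 at chr17:27635230-27635259 (minus), Rps2 at chr17:24720048-24720077 (plus) and Rps6 at chr4:86857353-86857382 (minus).
Rpl14: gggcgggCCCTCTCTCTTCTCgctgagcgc
Rpl24: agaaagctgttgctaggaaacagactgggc
Rplp0: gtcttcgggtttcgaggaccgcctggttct
Rps10: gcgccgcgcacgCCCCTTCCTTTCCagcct
Rps2: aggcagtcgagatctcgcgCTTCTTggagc
Rps6: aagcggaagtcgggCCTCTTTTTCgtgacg
Rpl14, Rps10, Rps2 and Rps6 held the run on this strand and Rpl24 and Rplp0 did not.

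By gene identifier, 42 of the 53 members had a start in the RefSeq promoter table, and 25 of these 42 (59.5%) held the run within the 30-base window. Among all 27025 genes with a start 40.3% held it. The letters CGGAAG, which form the core recognised by ETS factors, were searched on both strands of the 300 bases around each start and stood in 30 of the 42 members (71.4%), against 18.8% of all genes. The window reaches to both sides of the start, so a run in it need not begin the message or lie within it. An annotated start can lie some bases from the start used in these cells, and a match is a description of the sequence only.

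Before the groups are compared, some arrays need to be named. Cybb lay between 6.41 and 7.18 on the knockout arrays and between 8.35 and 9.75 on the wild-type arrays, except for the array labelled wild-type vehicle replicate 2, at 6.34. That array goes against its label by this gene, had the lowest interquartile range of all probe sets (1.92) and correlated least with the other arrays (mean 0.852). It enters the wild-type vehicle group as labelled, and results without it are given where they differ. On the leading principal component of 6612 unnamed probe sets, read as control probes, the arrays fell into 3 sets without overlap. Set 1 held every knockout array, replicates 1 to 3 of wild-type vehicle and replicates 1 and 2 of wild-type Ang II. Set 2 held the 2-HOBA arrays, replicates 4 to 7 of wild-type vehicle and replicates 3 and 4 of wild-type Ang II. The 6 Hyd/HCTZ arrays alone formed set 3, so treatment and array set cannot be told apart in any comparison of Hyd/HCTZ. Of 12 dendritic cell markers 10 lay above 5 on all 28 arrays, Itgax, Flt3 and H2-Aa among them, and the array means of the list ranged from 9.28 to 9.45 with Hyd/HCTZ and from 7.97 to 8.44 with Ang II.

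Both subunits were high on the log2 scale in all 6 groups, and their median levels were highest with Hyd/HCTZ. The median over the 33 large-subunit genes of an array averaged 11.55 ± 0.10 with Hyd/HCTZ (SD, n = 6), 11.24 ± 0.01 with 2-HOBA (n = 4), 10.92 ± 0.21 in knockout cells with Ang II (n = 4), 11.08 ± 0.23 in wild-type cells with Ang II (n = 4), 11.15 ± 0.09 in knockout cells with vehicle (n = 3) and 10.98 ± 0.27 in wild-type cells with vehicle (n = 7). The median over the 20 small-subunit genes averaged 11.94 ± 0.05, 11.69 ± 0.03, 11.55 ± 0.23, 11.55 ± 0.23, 11.70 ± 0.13 and 11.55 ± 0.23 in the same groups and order. The 6 Hyd/HCTZ arrays lay above the other 22 in both subunits, at 11.42 to 11.66 against a highest other value of 11.32 in the large subunit, and at 11.88 to 12.02 against 11.84 in the small one.

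The median over all 10452 tested genes of an array was also highest with Hyd/HCTZ, at 6.30 ± 0.10, against 5.89 ± 0.07 with Ang II alone. The level of the tested genes as a whole thus differed between arrays, as did that of these genes. Over all probe sets, with the untested dim ones included, the median was instead lower with Hyd/HCTZ than with Ang II. Giving the arrays a common median over all probe sets raised the members' differences between these groups, for Rpl10 from 0.95 to 1.06. The interquartile range of all probe sets had a mean of 3.26 with Hyd/HCTZ, against means from 2.53 to 2.72 elsewhere. Among the other arrays the low large-subunit medians were those of the array labelled wild-type vehicle replicate 2 (10.46) and of knockout Ang II replicate 2 (10.61). The 4 2-HOBA arrays lay closest together, between 11.23 and 11.25 in the large subunit.

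**Figure D1:**
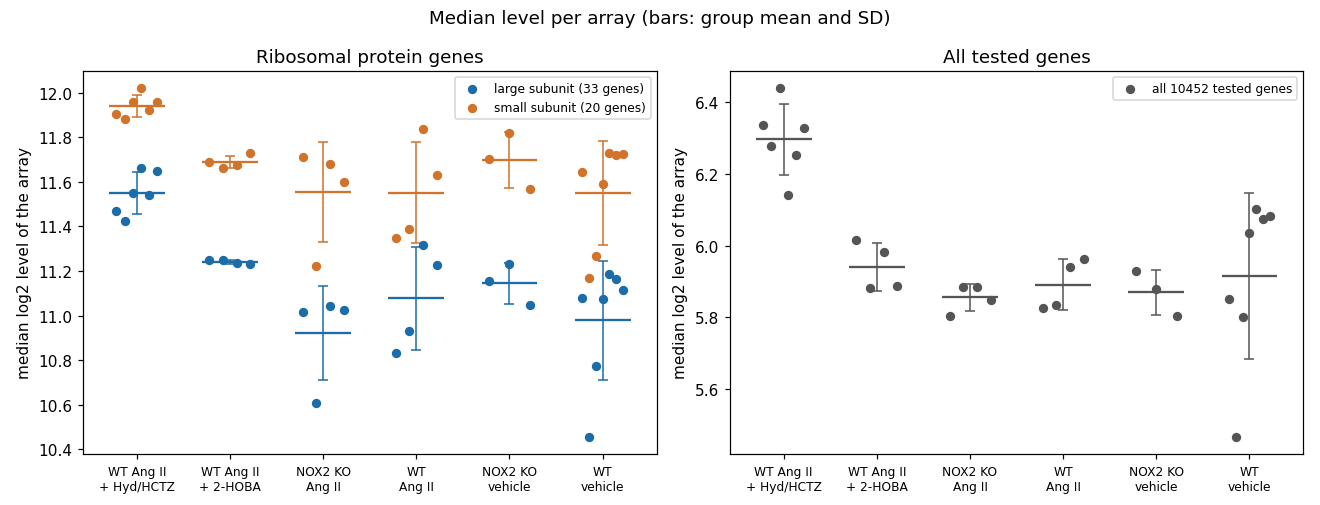
Median log2 level per array of the 33 large-subunit genes (blue) and 20 small-subunit genes (orange) on the left, and of all 10452 tested genes (grey) on the right, in 6 groups; points are arrays, horizontal bars group means and vertical bars SDs. The 6 Hyd/HCTZ arrays lie above the other 22 in both subunits, and their median over all tested genes is also the highest.

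The distance between the subunits within an array was also taken. The large-subunit median minus the small-subunit median of an array averaged -0.39 ± 0.05 with Hyd/HCTZ, -0.45 ± 0.04 with 2-HOBA, -0.63 ± 0.05 in knockout cells with Ang II, -0.47 ± 0.05 in wild-type cells with Ang II, -0.55 ± 0.04 in knockout cells with vehicle and -0.57 ± 0.07 in wild-type cells with vehicle. The 4 knockout Ang II arrays, at -0.70 to -0.58, lay below the 4 wild-type Ang II arrays, at -0.52 to -0.41, and the Hyd/HCTZ arrays, at -0.46 to -0.31, overlapped the wild-type Ang II arrays. The Hyd/HCTZ arrays also lay above the vehicle arrays, at -0.71 to -0.50 in wild-type and -0.59 to -0.52 in knockout cells. All knockout arrays are of set 1 and the wild-type Ang II arrays of sets 1 and 2, and these distances were not tested. A median over different probe sets is no measure of how much of each subunit a cell holds. In bulk RNA, fewer cells of a type and less RNA per cell cannot be told apart.

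In wild-type cells, Hyd/HCTZ on top of Ang II was set against Ang II by itself. Of the 53 members 32 rose and 1, Rps6, fell in the limma fit over all 10452 genes (Benjamini-Hochberg adjusted p below 0.05), while over all tested genes 40.8% were called higher and 11.9% lower. All 53 members exceeded 5 on at least 3 Hyd/HCTZ arrays and on at least 3 of the others, and among the 8539 genes that did so 46.3% were called higher and 6.34% lower. In the large subunit 22 of 33 rose and 0 fell, with a median difference of 0.52. In the small subunit 10 of 20 rose and 1 fell, with a median difference of 0.30. Both subunit medians rest on the brightest probe set of each gene, and other probe sets of a gene can differ from it, as given below. The median was 0.46 over the members and 0.32 over all tested genes. Differences are log2 values, Hyd/HCTZ with Ang II minus Ang II.

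Set against that general shift instead of 0, 12 members were higher and 7 lower, while 23.7% and 25% of all tested genes were called higher and lower on this measure. The 7 were Rpl4, Rpl27a, Rpl38, Rpl41, Rps6, Rps12 and Rps15, each read from its brightest probe set. In Rpl27a and Rps15 only that probe set had a difference below 0. The others lay at 0.16 to 0.80 in Rpl27a and at 0.43 and 0.69 in Rps15. Those of Rps12 ran from -0.22 to 0.16, those of Rpl38 and Rps6 all lay below 0, and Rpl4 and Rpl41 had 1 distinct probe set. The large subunit gave 9 higher and 4 lower members with a median of 0.20 above the shift, and the small subunit 3 and 3 with a median of -0.01. After quantile normalization 20 members were higher and 10 lower, while 23.7% and 17.8% of all tested genes were called higher and lower. The median over all tested genes was then 0.02. Higher genes made up 77.4% of all calls on the deposited values, 57.1% after quantile normalization and 84.4% when each array was given a common median. The 11 members called higher on all 4 scales (as deposited, with quantile normalization, with a common median and relative to the shift) were Rpl8, Rpl10, Rpl12, Rpl13, Rpl14, Rpl23, Rpl24, Rpl36, Rplp0, Rps10 and Rps29, and 0 members were called lower under all 4.

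The count also rested on which Ang II arrays were used. Ang II replicates 1 and 2, of array set 1, had large-subunit medians of 10.83 and 10.93, and replicates 3 and 4, of set 2, had 11.32 and 11.23. With replicates 3 and 4 as the only Ang II arrays, a setting added after the data were seen, 12 members were called higher (22.6%) and 0 lower, while 24.7% of all tested genes were called higher. Their large-subunit median difference was then 0.36 and the small-subunit median 0.15. Leaving out only Ang II replicate 1 gave 21 higher members.

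**Figure D2:**
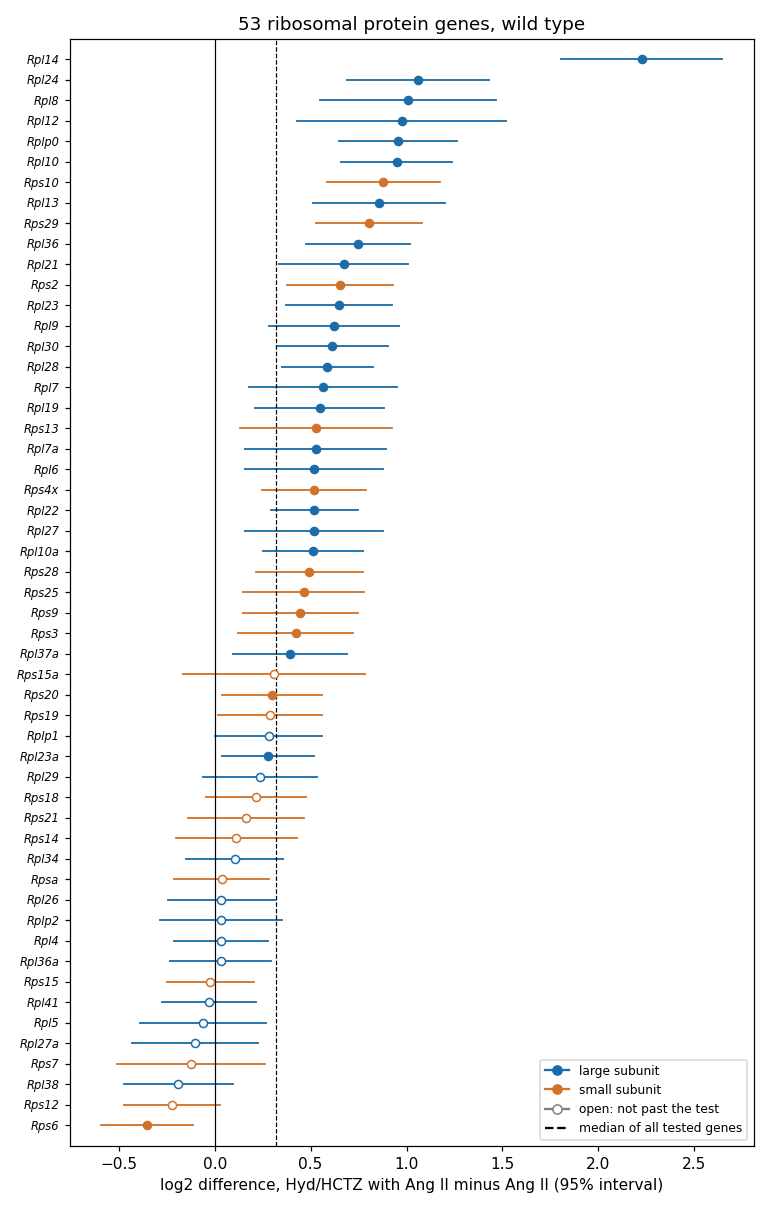
Log2 difference of each of the 53 members, Hyd/HCTZ with Ang II minus Ang II in wild-type cells, with its 95% interval; blue is the large and orange the small subunit, filled points passed the limma test, the solid line is 0 and the dashed line the median of all 10452 tested genes (0.32). Rpl14 stands apart at 2.23 and Rps6, at -0.35, is the only called member below 0.

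The largest rise was that of Rpl14, a protein of the large subunit, which had 1 single-symbol probe set, at a mean level of 7.69. Rpl14 levels with Hyd/HCTZ ran from 8.88 over a median of 9.40 to 9.56, against 6.78, 6.79, 7.65 and 7.11 in the 4 Ang II arrays. The groups did not overlap, and the Hyd/HCTZ arrays lay above all 22 others. The difference was 2.23 (SE 0.21, limma adjusted p = 2.188e-09), or 4.68-fold, and 1.91 relative to the median of all genes. With the set 2 Ang II arrays alone it was 1.93 (limma adjusted p = 4.619e-06).

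Rpl24, a large-subunit protein whose mutation in mice gives the belly spot and tail phenotype, had 11.23, 11.40 and 11.57 as the lowest, median and highest level with Hyd/HCTZ, against 10.06, 10.15, 10.85 and 10.23 with Ang II. The difference was 1.06 (SE 0.18, limma adjusted p = 2.198e-05). Rpl8, part of the core of the large subunit, had 11.21, 11.28 and 11.38 against 9.90, 9.96, 10.76 and 10.50, a difference of 1.01 (SE 0.22, limma adjusted p = 5.151e-04). Neither gene's groups overlapped, and in both the Ang II array nearest to the Hyd/HCTZ arrays was replicate 3. With the set 2 Ang II arrays alone Rpl24 was still called (0.84, limma adjusted p = 0.005831) and Rpl8 was not (0.66, limma adjusted p = 0.06905).

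Of the 3 stalk proteins 1, Rplp0, passed the test. Rplp0, the base of the stalk and a widely used normalisation gene, had 11.94, 12.07 and 12.17 with Hyd/HCTZ, against 10.75, 11.10, 11.27 and 11.29 with Ang II. The groups did not overlap, and Rplp0 rose by 0.96 (SE 0.15, limma adjusted p = 7.012e-06). Rplp1, the member of highest mean level in the large subunit, had 12.40, 12.91 and 12.99 against 12.50, 12.76, 12.29 and 12.67, which overlapped (0.28, limma adjusted p = 0.08323). Rplp2 had 7.55, 7.61 and 8.05 against 7.46, 7.56, 7.83 and 7.76 (0.03, limma adjusted p = 0.8795). Rplp2 took the opposite sign after quantile normalization, -0.44 (limma adjusted p = 0.02185).

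Rpl12, which lies at the foot of the stalk, was the dimmest member. Its levels were 5.65, 5.95 and 6.12 with Hyd/HCTZ, against 4.95, 4.56, 5.34 and 4.89 with Ang II, where the mean of 4.93 lay under the level of 5 required for testing. The groups did not overlap, and with 5 in place of that mean Rpl12 was at least 1.88-fold higher with Hyd/HCTZ (limma adjusted p = 0.003333 for the measured difference of 0.97).

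Rpl5, which with Rpl11 binds the p53 inhibitor Mdm2, had 10.66, 10.71 and 10.76 with Hyd/HCTZ, inside the range of the Ang II arrays at 10.71, 10.54, 11.06 and 10.77 (-0.06, limma adjusted p = 0.7664). Rpl22, which mice need for the development of alpha-beta T cells, had 6.98, 7.06 and 7.10 with Hyd/HCTZ, above the Ang II arrays at 6.46, 6.47, 6.63 and 6.57. Rpl22 rose by 0.52 (SE 0.11, limma adjusted p = 3.308e-04), and relative to the median of all genes its 0.20 did not pass the test (limma adjusted p = 0.1358).

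In the small subunit the largest rise was that of Rps10, a protein of the subunit's head. Rps10 had 12.05, 12.13 and 12.35 with Hyd/HCTZ, against 11.05, 11.17, 11.55 and 11.39 with Ang II, a difference of 0.88 (SE 0.14, limma adjusted p = 1.241e-05). Rps29, a zinc-binding protein and the member of highest mean level in the small subunit, had 13.39, 13.46 and 13.51 against 12.39, 12.61, 12.90 and 12.72, a difference of 0.80 (SE 0.14, limma adjusted p = 2.003e-05). Neither gene's groups overlapped. In humans, mutations of both genes cause Diamond-Blackfan anaemia.

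Rps2, which lines the entry of the messenger RNA channel, had 11.06, 11.19 and 11.26 with Hyd/HCTZ, against 10.46, 10.85, 10.27 and 10.48 with Ang II. Its groups did not overlap and the difference was 0.65 (SE 0.13, limma adjusted p = 2.143e-04), but after quantile normalization it was 0.24 (limma adjusted p = 0.1501). Rps3, which also lies at that entry, had 10.45, 10.65 and 10.84 against 10.11, 10.09, 10.57 and 10.13, and rose by 0.42 (SE 0.15, limma adjusted p = 0.0178) although Ang II replicate 3 lay within the Hyd/HCTZ range. With the set 2 Ang II arrays alone Rps3 was not called (0.30, limma adjusted p = 0.2388).

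Rps6, the substrate of the S6 kinases downstream of mTORC1, was the only member called lower. Its levels with Hyd/HCTZ were 11.39 at the lowest, 11.46 at the median and 11.81 at the highest, against 11.94, 11.77, 11.99 and 11.76 with Ang II. Of the Hyd/HCTZ arrays 5 lay below all Ang II arrays and replicate 4, at 11.81, lay among them. Rps6 fell by 0.35 (SE 0.12, limma adjusted p = 0.01255), by 0.67 relative to the median of all genes and by 0.61 after quantile normalization (limma adjusted p = 4.888e-05). With a common array median Rps6 was not called, at -0.24, nor with the set 2 Ang II arrays alone, at -0.37 (limma adjusted p = 0.06544).

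Rps19, the gene most often mutated in human Diamond-Blackfan anaemia, had 8.56, 8.80 and 8.89 with Hyd/HCTZ, against 8.18, 8.50, 8.85 and 8.41 with Ang II (0.29, limma adjusted p = 0.06642). Rps15a, the dimmest member of the small subunit, had 6.26, 6.78 and 6.90 against 6.09, 6.11, 7.01 and 6.35 (0.31, limma adjusted p = 0.2672). Rpsa, also known as the laminin receptor, had 12.27, 12.41 and 12.49 against 12.43, 12.36, 12.29 and 12.38 (0.04, limma adjusted p = 0.825). All 3 genes overlapped between the groups.

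**Figure D3:**
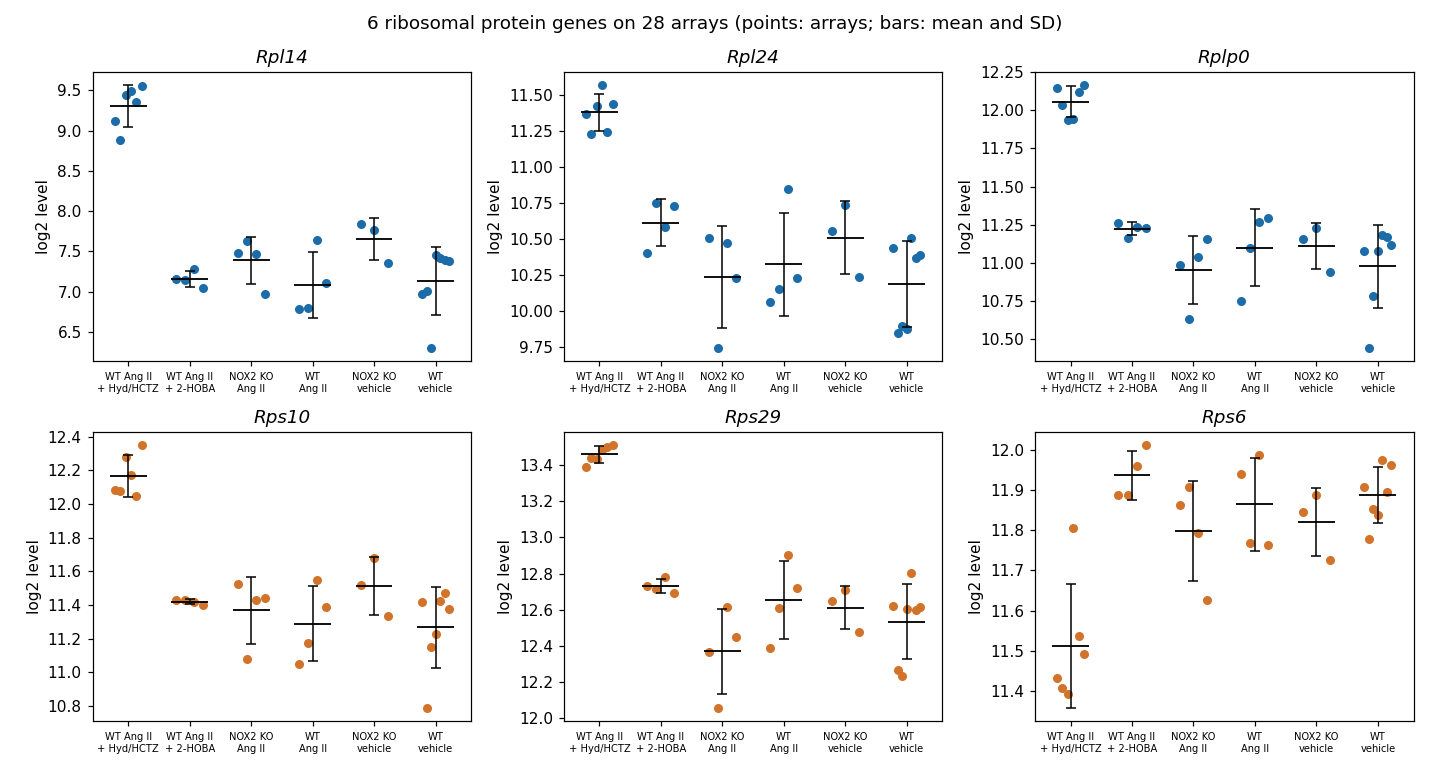
Log2 level of Rpl14, Rpl24, Rplp0, Rps10, Rps29 and Rps6 on all 28 arrays in 6 groups; points are arrays, horizontal bars group means and vertical bars SDs, and each panel has its own axis. In the first 5 genes the Hyd/HCTZ arrays lie above all other arrays, and in Rps6 5 of the 6 lie below the Ang II arrays.

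Across the members, 45 differences were above 0 and 8 below. In 25 members all Hyd/HCTZ arrays lay above all Ang II arrays, and in 0 below, where 34.4% and 10% of all tested genes did so. In 20 members, 15 of the large and 5 of the small subunit, the Hyd/HCTZ arrays lay above all 22 other arrays, as did 20.2% of all tested genes. Bright genes in general were shifted: among the 302 genes with a mean over all arrays above 9, the median difference was 0.50 and 55% were called higher. The 44 members among them had a median of 0.48, with 29 called higher and 1 lower.

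The 7 members that were lower relative to the general shift on their brightest probe sets were 4 of the large and 3 of the small subunit. They were chosen for description after their values were seen. Rps12 was at 11.95, 11.99 and 12.09 with Hyd/HCTZ and at 12.14, 12.07, 12.44 and 12.23 with Ang II, a difference of -0.22 (limma adjusted p = 0.1253) and -0.54 relative to the shift (limma adjusted p = 6.654e-04). Rpl38, which in mice is needed for the translation of a subset of Hox messages, was at 11.60, 11.69 and 11.90 and at 11.84, 11.71, 12.19 and 11.87, a difference of -0.19 (limma adjusted p = 0.254) and -0.51 relative to the shift (limma adjusted p = 0.003515). Both overlapped between groups, and against 0 neither passed the test.

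The differences were also split by sequence. Of the 25 members with the run in the window 12 were called higher and 1 lower, with a median difference of 0.31, and of the 17 without it 12 were called higher and 0 lower, with a median of 0.49. Rpl14 and Rps6, at both ends of the range, both held it. Of the 30 members with CGGAAG 14 were called higher and 1 lower, with a median of 0.26, and of the 12 without it 10 and 0, with a median of 0.52. Neither split was tested, and 40.8% of all tested genes were called higher.

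Most members had several probe sets, which allowed their differences to be compared. Of the 53 genes, 15 had 1 single-symbol probe set, Rpl8, Rpl12 and Rpl14 among them, and 38 had several, up to 14 for Rps12. A total of 12 such probe sets repeated the 28 values of another one, which left 37 genes with distinct probe sets. Over the 196 distinct probe sets 166 differences between Hyd/HCTZ and Ang II were above 0 and 30 below, with a median of 0.52. Within a gene the range had a median of 0.28 and was largest for Rpl21, from 0.03 to 0.99. In 3 genes, Rpl27a, Rps12 and Rps15, the probe sets took both signs. The subunit medians above thus depend on the probe sets used. In the small subunit the median over a gene's distinct probe sets was 0.51 for Rpsa, 0.43 for Rps15, 0.42 for Rps21 and 0.71 for Rps9. The probe sets used gave 0.04, -0.02, 0.16 and 0.45. It was lower than the used value in some others, such as Rps4x, at 0.23 against 0.52.

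The 8 distinct Rps6 probe sets all lay below 0, from -0.38 to -0.16, and those of Rpsa ran from 0.04 to 0.79. With the probe set of lowest mean in place of the highest, Rps6 was at -0.23 (limma adjusted p = 0.146) and Rpsa at 0.79 (limma adjusted p = 0.00203). All Rplp0, Rps10 and Rps29 probe sets lay above 0.78. The annotation used gives no probe positions, so which of these probe sets lie in the gene and which in a copy of it is not known here.

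**Figure D4:**
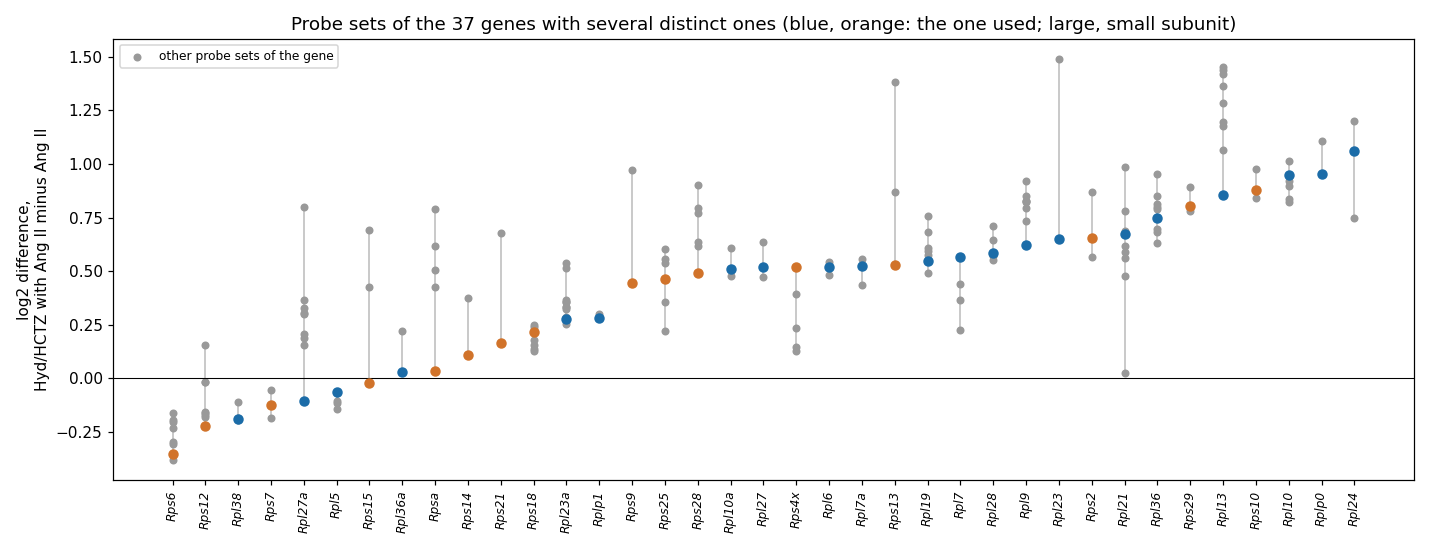
Log2 difference, Hyd/HCTZ with Ang II minus Ang II, of every distinct single-symbol probe set of the 37 members with more than 1; coloured points (blue for the large, orange for the small subunit) are the probe sets used, grey points the others, and grey lines join the probe sets of a gene. Rps6 lies below 0 in all its probe sets, and Rpl21 has the widest range.

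Other genes of translation were read from the same fit, where 40.8% of all tested genes were called higher, and 23.7% relative to the general shift. Of 5 tested ribosomal protein genes outside the symbol rule 4 rose and 0 fell, with a median of 1.04, and 3 were higher relative to the shift. Rps27l, a paralogue of Rps27 and a p53 target, averaged 10.09 ± 0.16 with Hyd/HCTZ and 8.12 ± 0.71 with Ang II (difference 1.96, limma adjusted p = 8.437e-06), and Fau, which encodes a ubiquitin-like protein fused to a small-subunit protein, averaged 12.03 ± 0.12 and 11.36 ± 0.16 (difference 0.68, limma adjusted p = 3.903e-04). Of 15 elongation factors and other messages with a TOP tract 9 rose (60%) and 0 fell, with a median of 0.52, while relative to the shift 4 were higher and 1, Tpt1, lower. They were led by the initiation factor 3 subunits Eif3k (1.52), Eif3l (1.35), Eif3f (1.10) and Eif3h (0.84). Of 24 other initiation factors 16 rose and 0 fell, with a median of 0.69, while relative to the shift 10 were higher and 1 lower. Eif2b1 reached the level for testing through the Hyd/HCTZ arrays alone, and 15 of the 22 that reached it on both sides rose. The list was led by Eif3m (2.51), Eif2s3x (1.31), Eif4a1 (1.29) and Eif2s2 (1.22).

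Of 32 genes of ribosome biogenesis 16 rose (50%) and 0 fell, with a median of 0.51, while relative to the shift 9 were higher and 1 lower. They were led by Polr1d, a subunit shared by RNA polymerases I and III (2.16), the ribosomal RNA methyltransferase fibrillarin (Fbl, 1.62), Nop16 (1.61) and Nhp2 (1.33). Among 16 genes of mTORC1 and Myc, which control ribosome production, 5 rose (31.2%) and 1 fell, with a median of 0.36, and relative to the shift 2 were higher and 1 lower, with a median of 0.04. The share that rose was below that of all tested genes. Myc averaged 8.45 ± 0.12 with Hyd/HCTZ and 10.24 ± 0.62 with Ang II, without overlap (difference -1.79, limma adjusted p = 2.574e-05). Rheb, the GTPase that activates mTORC1, averaged 8.58 ± 0.18 and 6.85 ± 0.24 (difference 1.72, limma adjusted p = 3.363e-07), and Sesn2, an inhibitor of mTORC1, averaged 6.39 ± 0.41 and 5.37 ± 0.27 (difference 1.02, limma adjusted p = 1.959e-04).

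The mitochondrial ribosomal proteins, which are encoded in the nucleus and make up a separate ribosome, rose in 64 of 76 and fell in 0, with a median of 0.94. Relative to the median of all genes 50 were higher and 1 lower. Mrpl47 and Mrps11 reached the level for testing through the Hyd/HCTZ arrays alone, and 62 of the other 74 rose. The array median of the mitochondrial genes ran from 6.92 to 7.09 with Hyd/HCTZ and from 5.67 to 6.25 with Ang II, without overlap. The difference between the mitochondrial and the cytosolic genes was not tested.

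Markers of cell types also differed between these groups, where 40.8% of all tested genes were called higher and 11.9% lower. Among genes above 5 on at least 3 arrays with and without Hyd/HCTZ these shares were 46.3% and 6.34%. Dendritic cell markers rose in 11 of 12. Activation markers of dendritic cells rose in 6 of the 6 that exceeded 5 on at least 3 arrays with and without Hyd/HCTZ, their means being 9.06 to 9.37 with Hyd/HCTZ and 7.03 to 7.46 with Ang II, and Tnfsf9 was tested through the Hyd/HCTZ arrays alone. B cell markers fell in 8 of 9, with list means of 5.76 to 6.83 with Hyd/HCTZ and 7.61 to 8.61 with Ang II. In the same order of groups, T cell markers fell in 4 of 7 (5.09 to 5.66 and 6.10 to 6.48), erythroid markers in 2 of the 2 that exceeded 5 on both sides (4.59 to 5.27 and 5.90 to 7.04) and neutrophil markers in 1 of 4 (6.71 to 8.51 and 7.70 to 10.10). A further 5 erythroid and 3 neutrophil markers were tested through arrays without Hyd/HCTZ alone. Markers of red pulp macrophages rose in 7 of 8 (7.63 to 9.09 and 6.65 to 7.69), and of 4 tested plasma cell markers 1 rose and 1 fell. Klf1, Elane, Sdc1 and Tnfrsf17 stayed under 5 on all 28 arrays. Relative to the general shift, 9 of 12 dendritic cell and 5 of 8 red pulp macrophage markers were higher, as were 23.7% of all tested genes. On this measure 8 of 9 B cell and 6 of 7 T cell markers were lower, as were 25% of all tested genes. The part of these cells in the ribosomal protein differences was not tested.

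2-HOBA given with Ang II was compared with Ang II alone. No member passed the limma test in either direction, and over all tested genes 0% did. At an unadjusted p below 0.05, 1 member and 379 of all tested genes passed. The members leaned upward, 48 above and 5 below 0, with medians of 0.18 in the large and 0.13 in the small subunit, against 0.05 over all tested genes. Within array set 2, which holds all 2-HOBA arrays and Ang II replicates 3 and 4, the medians were -0.00965 and -0.00799.

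The smallest p values were those of Rpl30, which is near the interface of the subunits, and Rps15a. Rpl30 had 6.83, 7.17, 6.87 and 6.82 with 2-HOBA and 6.53, 6.21, 6.87 and 6.66 with Ang II, a difference of 0.35 (limma adjusted p = 0.9774). Rps15a had 6.81, 6.92, 6.68 and 7.08 with 2-HOBA and 6.09, 6.11, 7.01 and 6.35 with Ang II, a difference of 0.48 (limma adjusted p = 0.9774, 95% interval -0.04 to 1.00). Both overlapped through Ang II replicate 3, the highest Ang II array of both genes. In 2 members, Rpl22 and Rplp2, all 2-HOBA arrays lay above all Ang II arrays, as did 1.8% of all tested genes.

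Ang II was compared with vehicle in both genotypes. In knockout cells 50 of 53 members lay below 0, with medians of -0.16 in the large and -0.12 in the small subunit against -0.01 over all tested genes. In wild-type cells 34 lay above 0, with medians of 0.04 and 0.02 against 0.00. No member passed the limma test in either genotype, where 0% of all tested genes did. In knockout cells 5 members had every Ang II array under every vehicle array (Rpl12, Rpl23, Rpl23a, Rps2 and Rps4x, named after their values were seen) and 0 had them above, where 2.58% and 2.2% of all tested genes did so. In wild-type cells the arrays were separated in 0 members, against 0.0861% of all tested genes above and 0.144% below. At an unadjusted p below 0.05, 1 member and 296 genes passed in knockout cells and 0 members and 266 genes in wild-type cells. All knockout arrays are of set 1, and within each set the wild-type large-subunit median was 0.05. Without the array labelled vehicle replicate 2 the wild-type medians over all arrays were -0.02 and -0.04, of the opposite sign. Set 1 holds that array, and the median within set 1 was not repeated without it.

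Rpl12 had the smallest p in both genotypes. In knockout cells it was at 4.85, 4.40, 5.29 and 4.64 with Ang II and at 5.34, 5.30 and 5.96 with vehicle, without overlap, and its difference was -0.74 (limma adjusted p = 0.9999). Of the Ang II arrays 3 lay under the level of 5 required for testing. In wild-type cells Rpl12 averaged 4.93 ± 0.32 with Ang II and 5.42 ± 0.66 with vehicle (-0.49, limma adjusted p = 1). The next were Rpl21 in knockout cells, at 10.69, 10.31, 10.79 and 10.43 with Ang II and 10.85, 11.08 and 10.70 with vehicle (-0.32, limma adjusted p = 0.9999), and Rpl29 in wild-type cells, at 7.34 ± 0.14 with Ang II and 7.16 ± 0.26 with vehicle (0.19, limma adjusted p = 1).

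Knockout cells were compared with wild-type cells under each treatment. With vehicle 0 members were called, against 0% of all tested genes called higher and 0.00957% lower, and 4 members and 657 genes passed an unadjusted p below 0.05. The 4 were Rpl14, Rpl30, Rpl36 and Rps2. All knockout arrays lay above all wild-type arrays in Rpl36 and Rps2 and below them in 0 members, where 0.947% and 0.737% of all tested genes did so. Rps2 was at 10.66, 10.68 and 10.78 in knockout cells, above the wild-type range of 10.01 to 10.54 with its median of 10.38 (0.34, limma adjusted p = 0.7359). Rpl30 was at 6.18, 6.18 and 6.58, against a wild-type range of 6.40 to 6.89 with its median of 6.70, which overlapped (-0.36, limma adjusted p = 0.7358).

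The knockout difference with vehicle depended on the array set. The large-subunit median was 0.06 over all arrays and 0.26 within set 1, which holds the 3 knockout arrays and wild-type vehicle replicates 1 to 3. With array set as a block 2 members were called higher, Rpl14 (0.88, limma adjusted p = 0.02403) and Rpl8 (0.75, limma adjusted p = 0.0291), among 144 called genes. Set 1 includes the array labelled wild-type vehicle replicate 2, the lowest in both subunits. Without it the medians over all arrays were 0.0042 in the large and 0.06 in the small subunit, against 0.06 and 0.07 with it. The median within set 1 and the block fit were not repeated without that array. In wild-type vehicle replicates 1 and 3 Rpl14 was at 6.97 and 6.30 and Rpl8 at 9.91 and 9.40. The knockout vehicle arrays had 7.84, 7.76 and 7.36 for Rpl14 and 10.38, 10.58 and 10.26 for Rpl8.

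With Ang II 0 members were called, against 0.0478% of all tested genes, 0.00957% higher and 0.0383% lower, and 0 members and 714 genes passed an unadjusted p below 0.05. The medians were -0.13 in the large and -0.01 in the small subunit over all arrays, and 0.05 and 0.13 within set 1. Rps29 was at 12.37, 12.05, 12.61 and 12.45 in knockout cells and at 12.39, 12.61, 12.90 and 12.72 in wild-type cells (-0.29, limma adjusted p = 0.7537). Rpl38 was at 11.86, 11.17, 11.78 and 11.71 in knockout cells and at 11.84, 11.71, 12.19 and 11.87 in wild-type cells (-0.27, limma adjusted p = 0.7945). The arrays were separated in 0 members, against 1.67% of all tested genes above and 1.94% below. In Rps29 and Rpl38 knockout Ang II replicate 2 was the lowest array and the groups overlapped.

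The genotype by Ang II interaction, which is the Ang II response in knockout cells minus that in wild-type cells, lay below 0 in 51 of 53 members. Its medians were -0.21 in the large and -0.13 in the small subunit, against -0.01 over all tested genes. They were -0.23 and -0.14 within set 1 and -0.17 and -0.09 with replicate 2 of wild-type vehicle left out. No member passed the limma test, and 0% of all tested genes did, and 0 members and 257 genes passed an unadjusted p below 0.05. The smallest p values were those of Rps29 (-0.36, limma adjusted p = 1, 95% interval -0.79 to 0.06) and Rpl10a (-0.33, limma adjusted p = 1, 95% interval -0.73 to 0.07). The members share their arrays and move together on an array, so these counts are not independent observations. The comparisons also share arrays, the wild-type Ang II arrays entering 5 of the 7.

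**Figure D5:**
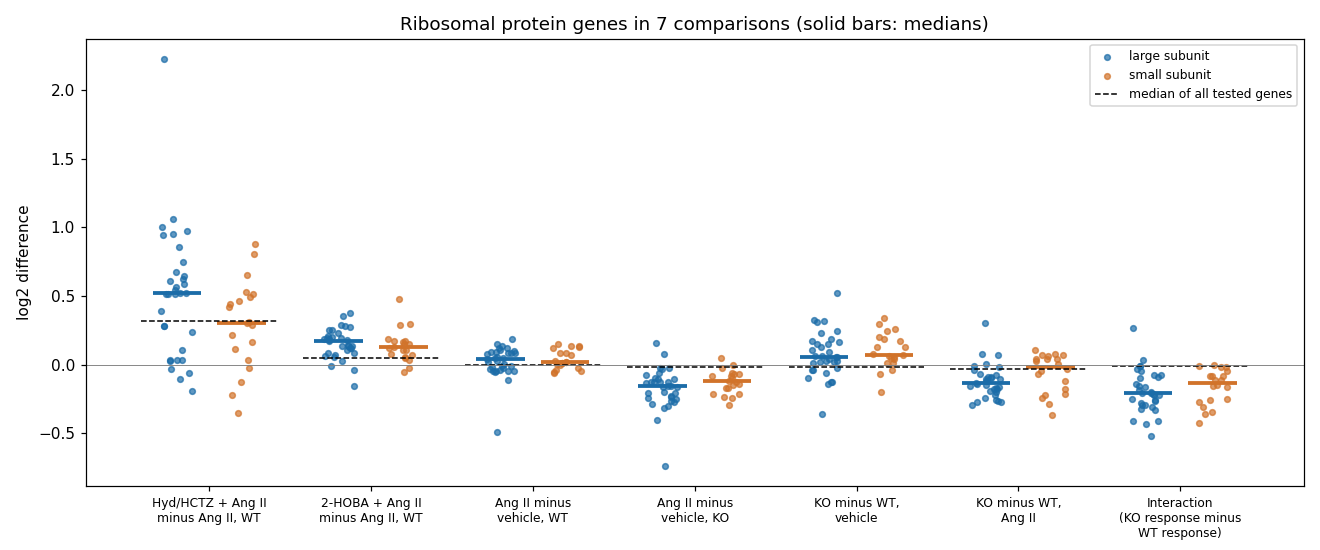
Log2 differences of the 53 members in 7 comparisons; each point is a gene, blue for the large and orange for the small subunit, solid bars are medians over the genes of a subunit and dashed lines the median over all 10452 tested genes. Only Hyd/HCTZ with Ang II against Ang II has members past the test; elsewhere the medians lie between -0.21 and 0.18.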

How the data were processed

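The deposited table holds 1 log2 value per probe set and array, which the authors made with RMA in Partek 6.6, per the submitters' processing notes. Its annotation, background settings and scan dates are not given in the sources used here. No further normalization was applied, and a difference of 1 is 2-fold. Differences among dim and among very bright signals can be compressed on such arrays, while precision is limited by how many arrays there are. Of 35556 probe sets 21789 carried 1 symbol in the platform annotation, for 19938 genes. The probe set of highest mean stood for a gene, and a gene was tested if it exceeded 5 on 3 or more arrays. All 53 members matched RefSeq by Entrez identifier.

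limma 3.58.1 in R 4.3.3 fitted 6 group means over all 28 arrays, with eBayes without trend or robust options and two-sided tests. Calls are genes whose p, adjusted by Benjamini-Hochberg over all tested genes of a comparison, lay below 0.05. Errors after ± are SDs, SE is limma's, and intervals are 95%. The procedure was tested on data simulated with independent noise per gene and 200 changed genes. Those data held no array sets and no difference in distribution between arrays, so the test does not bear on either. Members and gene lists were chosen with earlier results of these data known. Genes were named by a rule: 13 listed members (9 of them measured), the brightest and dimmest of each subunit, the 3 largest called rises and falls per subunit with Hyd/HCTZ, the 2 smallest p values elsewhere, and up to 4 called genes per list. Other names were chosen after their values were seen.

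Groups come from the labels' descriptions; some knockout titles write Ang I where the descriptions write Ang II. Deviations of same-numbered arrays correlated above 0.1 in 3 of 4 numbers for Ang II against vehicle in wild-type cells (-0.35 to 0.37), and in 0 or 1 number in each other comparison. In no comparison did all numbers pass, so they were not taken as pairs. Alternatives were other filters, scalings, array weights, eBayes options, probe sets, blocks for array set and replicate, and leaving out each array. Array sets were read from the data, not from scan dates. No array duplicated another.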

Additional observations from a re-analysis of the deposited data

Results flagged for a closer look

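In 125 groups of 4 to 10 arrays, over 25 measures, 8 had 1 array far from the others by Dixon's criterion, and chance gives about 1 in 20. Hyd/HCTZ replicate 4 accounted for 3 of them: Rplp1 was at 12.399 there, with the nearest Hyd/HCTZ array at 12.833, Rplp2 at 8.0505 with the nearest at 7.7081, and Rps6 at 11.806 with the nearest at 11.536. Knockout Ang II replicate 2 accounted for 2: the large-subunit median was 10.607, with the nearest array at 11.014, and Rplp2 was at 6.8778 with the nearest at 7.5675.

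Rps3 was at 10.568 in wild-type Ang II replicate 3, with the nearest Ang II array at 10.13. Rpl14 was at 6.2981 in wild-type vehicle replicate 3, with the nearest vehicle array at 6.9724. Rpl30 was at 7.1726 in 2-HOBA replicate 2, with the nearest at 6.8682.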

How the results depend on the processing

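The count of members called higher with Hyd/HCTZ against Ang II was 32 as reported, 20 after quantile normalization, 12 relative to the median of all genes, 12 with only the set 2 Ang II arrays, 21 with a replicate block (the numbers do not pair the arrays) and 134 over all single-symbol probe sets, of which there are more to count. The count called lower was 1 as reported, 10 after quantile normalization, 7 relative to the median, 2 with array weights, 4 over all single-symbol probe sets, and 0 with a common median, with only the set 2 Ang II arrays and with the probe set of lowest mean. Of all tested genes 40.8% were called higher and 11.9% lower as reported, and 23.7% and 17.8% after quantile normalization. Relative to the median 23.7% and 25% were. With only the set 2 Ang II arrays 24.7% were higher, and with a common median 8.57% were lower. For the other settings named here the share of all tested genes was not counted. The subunit medians were 0.26 (large) and 0.088 (small) after quantile normalization and 0.20 and -0.013 relative to the median. Rplp2 reversed after quantile normalization (-0.44). Leaving out each array of both groups in turn, or replicate 2 of wild-type vehicle, gave 21 to 34 members higher, the 21 without wild-type Ang II replicate 1 and the 34 without that vehicle array, and 1 lower each time. In knockout against wild-type cells with vehicle, array weights called 1 member lower (Rpl30, -0.49, limma adjusted p = 0.01401). The share of all tested genes called in that fit was not counted. Array set as a block called 2 members higher, among 144 called genes, with a large-subunit median of 0.26, which was 0.26 within set 1. For 2-HOBA the large-subunit median was -0.016 with array set as a block and -0.00965 within set 2. Of the counts and subunit medians under alternative settings, 701 stayed near the reported value and 23 moved. A count stayed if it was equal to the reported one or within a fixed ratio of it. A median stayed if it changed by less than the pooled SD of the array medians within the groups compared. These totals do not measure robustness. Outside the Hyd/HCTZ comparison the reported counts were 0 with hardly any tested gene called, so they could hardly move. A median could also change sign and still count as near. For Ang II against vehicle in wild-type cells the large-subunit median ran from -0.05 to 0.09 with arrays left out in turn, and all were counted as near. The causes were not tested.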
